A study of Mus musculus with 18 samples.

Results

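Genes tied to macrophages that have taken up lipid were followed across all libraries of the series. They are 10 of the 22238 gene symbols in the deposited count table. They were selected by symbol, because several of them are very high in 1 library, the PBS OIL library labelled replicate 2. The lipid-laden macrophage genes are 7 (Spp1, Gpnmb, Msr1, Atp6v0d2, Fabp5, Slc15a3 and Trem2), and 3 general macrophage genes, Cd68, Csf1r and Cx3cr1, are set beside them. The levels in PBS OIL replicate 2 chose the genes and are therefore given as a description, with no test. The same holds for these genes in every comparison that contains that library. All 10 symbols were found and all 10 passed the filter on low counts, both with and without that library.

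Macrophages that engulf more lipid than they can clear become foam cells or lipid-associated macrophages, which are best known from atherosclerotic plaques, obese fat tissue and demyelinated nerve. Such cells carry scavenger and lipid-sensing receptors at the surface, enlarge and acidify their lysosomes, and secrete osteopontin. In the uterus, macrophages clear dying epithelium and secretions, and their number and state follow the ovarian hormones.

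Total RNA of whole uterus homogenate was sequenced from ovariectomized adult mice of CD-1, an outbred stock. The animals received doxorubicin (DOX), an anthracycline used in chemotherapy, or PBS, the vehicle, and within each arm estradiol (E2), progesterone (P4) or oil (OIL), the carrier without hormone. The 6 groups, DOX E2, PBS E2, DOX P4, PBS P4, DOX OIL and PBS OIL, hold 3 libraries each. All groups lack ovaries, and doses, times between treatments and exact ages are not stated by the labels.

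The libraries held between 18042357 and 39783785 counts. Levels are given as CPM, a gene's counts relative to the size of its library scaled with TMM, the trimmed mean of M values. Whether the 3 libraries of a group stand for 3 mice is not stated by any label, and the spread behind each p-value may therefore be technical. Markers of uterine smooth muscle and epithelium were present in every library, with summed levels of 6691 to 27398 CPM and 696 to 1600 CPM over 10 genes each. PBS OIL replicate 2 stood apart from the rest. Of 15494 tested genes, 21 had their highest level there with at least a 4-fold gap to the next library (log2 CPM, prior count 2), against 1 gene each in DOX P4 replicate 3 and PBS OIL replicate 1 and 0 in each of the other 15 libraries. Its share of mitochondrial counts was 3.38%, inside the range of the other libraries, 2.63% to 4.79%.

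Spp1, which encodes osteopontin, a secreted phosphoprotein that binds integrins and CD44, lies on chromosome 5 at 104435118 to 104441050 (GRCm38, plus strand). It had 319 CPM in PBS OIL replicate 2, against 2.67 and 3.08 CPM in PBS OIL replicates 1 and 3 and 1.74, 2.98 and 2.95 CPM in DOX OIL. It had 2.38, 2.73 and 1.68 CPM in DOX E2, 1.42, 3.09 and 2.36 CPM in PBS E2, 1.31, 1.80 and 1.81 CPM in DOX P4 and 1.98, 1.16 and 2.22 CPM in PBS P4. The single library thus lay 103-fold above the highest of the other 17 (PBS E2 replicate 2), while those 17 stayed within a 2.65-fold range. Their groups overlapped, except that PBS OIL replicates 1 and 3 lay above every DOX P4 and PBS P4 library. The value rests on 6872 counts in PBS OIL replicate 2, against 60 and 66 counts in replicates 1 and 3 of that group. In bulk tissue, more cells of a type and more RNA per cell cannot be told apart.

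Gpnmb, which encodes a transmembrane glycoprotein of endosomes and lysosomes that macrophages make when lysosomes are overloaded, lies on chromosome 6 at 49036546 to 49070929 (plus strand). It had 1213 CPM in PBS OIL replicate 2, against 70.3 and 59.8 CPM in replicates 1 and 3 and 35.2, 68.7 and 61.7 CPM in DOX OIL. The library lay 17.2-fold above the next one, PBS OIL replicate 1, and 42.7-fold above the median of the other 17. Gpnmb varied more than Spp1 between the groups of the other 17 libraries, over a 7.44-fold range. Per kilobase of exon, Spp1 and Gpnmb were at similar levels in PBS OIL replicate 2, with 194 and 186 CPM per kb, and ranged over 0.707 to 1.87 and 1.45 to 10.8 CPM per kb in the others.

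The windows of 250 bases before the RefSeq start of 4 of the genes are shown because Spp1 and Gpnmb had the highest levels per length in that library and Trem2 and Cd68 lower ones. Capitals mark matches, on either strand, to the AP-1 motif TGANTCA or to GAGGAA, a core of the myeloid factor PU.1. CACGTG and CATGTG, the E-boxes read by MITF and its relatives TFEB, TFE3 and TFEC, were searched as well and match in none of the 4. The motifs do not overlap in these windows.
Spp1 promoter (chr5:104434861-104435110, plus strand): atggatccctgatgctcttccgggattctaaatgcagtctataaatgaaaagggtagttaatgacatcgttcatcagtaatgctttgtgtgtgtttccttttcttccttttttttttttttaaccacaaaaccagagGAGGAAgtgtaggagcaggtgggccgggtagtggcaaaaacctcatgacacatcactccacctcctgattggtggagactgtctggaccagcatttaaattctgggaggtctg
Gpnmb promoter (chr6:49036268-49036517, plus strand): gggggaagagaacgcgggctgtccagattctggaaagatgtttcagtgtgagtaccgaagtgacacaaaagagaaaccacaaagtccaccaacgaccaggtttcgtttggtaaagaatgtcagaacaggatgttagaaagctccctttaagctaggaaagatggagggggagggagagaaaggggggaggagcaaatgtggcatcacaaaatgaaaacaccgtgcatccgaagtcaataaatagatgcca
Trem2 promoter (chr17:48346151-48346400, plus strand): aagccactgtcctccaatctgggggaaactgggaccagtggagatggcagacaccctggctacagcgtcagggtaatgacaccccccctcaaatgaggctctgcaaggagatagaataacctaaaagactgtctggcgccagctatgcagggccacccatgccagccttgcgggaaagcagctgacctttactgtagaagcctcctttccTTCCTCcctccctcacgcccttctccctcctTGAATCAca
Cd68 promoter (chr11:69666171-69666420, minus strand): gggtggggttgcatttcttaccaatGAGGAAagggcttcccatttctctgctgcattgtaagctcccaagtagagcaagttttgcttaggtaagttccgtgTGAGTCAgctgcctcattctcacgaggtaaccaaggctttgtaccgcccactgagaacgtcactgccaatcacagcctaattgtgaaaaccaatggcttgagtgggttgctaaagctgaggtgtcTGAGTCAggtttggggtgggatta

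These sequences are from RefSeq, build GRCm38.p6, whose table had an entry for 5 of the 10 genes. The Spp1 window shown holds 1 GAGGAA, the Trem2 window 1 TGANTCA and 1 GAGGAA, the Cd68 window 2 TGANTCA and 1 GAGGAA, and the Gpnmb window none of the 4 motifs. The table has another window for Spp1, at chromosome 5 104435942 to 104436191, and 1 for Cx3cr1, and neither holds any of the 4. Of all 32851 windows of this length in the table, 6.75% hold TGANTCA, 23.3% GAGGAA, 6.02% CACGTG and 12.3% CATGTG. A match is a string of letters and no evidence of binding.

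Among the other lysosomal members, Atp6v0d2, which encodes the d2 subunit of the membrane sector of the proton pump V-ATPase and is typical of osteoclasts and macrophages, had 63.6 CPM in PBS OIL replicate 2, against 4.55 and 2.52 CPM in replicates 1 and 3. The gene lies on chromosome 4 at 19876841 to 19922605 (minus strand). The highest other library, DOX OIL replicate 3, had 8.58 CPM, so the gap was 7.41-fold. Slc15a3, which encodes a proton-coupled histidine and peptide transporter of endosomes and lysosomes, had 26.0 CPM in PBS OIL replicate 2, against 1.92 and 1.91 CPM in replicates 1 and 3. The gene, on chromosome 19 at 10839727 to 10859362 (plus strand), was not highest there, because DOX E2 replicates 1 and 2 had 27.7 and 30.7 CPM.

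Of the surface receptors, Trem2, a lipid sensor that signals through TYROBP, had 42.0 CPM in PBS OIL replicate 2, against 4.95 and 3.87 CPM in replicates 1 and 3, and lay 5.06-fold above the next library. Msr1, the class A scavenger receptor for modified lipoproteins, had 36.5 CPM in PBS OIL replicate 2, against 0.936 and 1.72 CPM in replicates 1 and 3, and lay 1.499-fold above DOX E2 replicate 2. Fabp5, a cytosolic fatty acid carrier that epithelial cells also make, had 75.3 CPM in PBS OIL replicate 2, against 5.44 and 4.47 CPM in replicates 1 and 3. It lay 3.08-fold above DOX E2 replicate 1. These 3 genes lie on chromosome 17 at 48346401 to 48354147 (Trem2), chromosome 8 at 39581685 to 39642673 (Msr1) and chromosome 3 at 10012548 to 10016607 (Fabp5). So 6 of the 7 genes were highest in PBS OIL replicate 2, and the gap to the next library ran from 1.499-fold for Msr1 to 103-fold for Spp1.

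Of the general macrophage genes, Cd68 stood out in that library about as far as Fabp5 by the gap to the next library, and Csf1r and Cx3cr1 did not. Cd68, a lysosomal glycoprotein of macrophages, had 98.1 CPM in PBS OIL replicate 2, against 16.1 and 15.7 CPM in replicates 1 and 3, and was 3.05-fold above the next library and 4.86-fold above the median of the other 17. Csf1r, the receptor for the growth factors CSF1 and IL-34, had 85.8 CPM in PBS OIL replicate 2, against 33.1 and 51.0 CPM in replicates 1 and 3, and DOX OIL replicate 2 came within 1.09-fold of it at 79.0 CPM. Cx3cr1, the fractalkine receptor, had 10.7 CPM in PBS OIL replicate 2, against 7.62 and 5.78 CPM in replicates 1 and 3, which was the fourth highest of the 18 libraries.

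**Figure D1:**
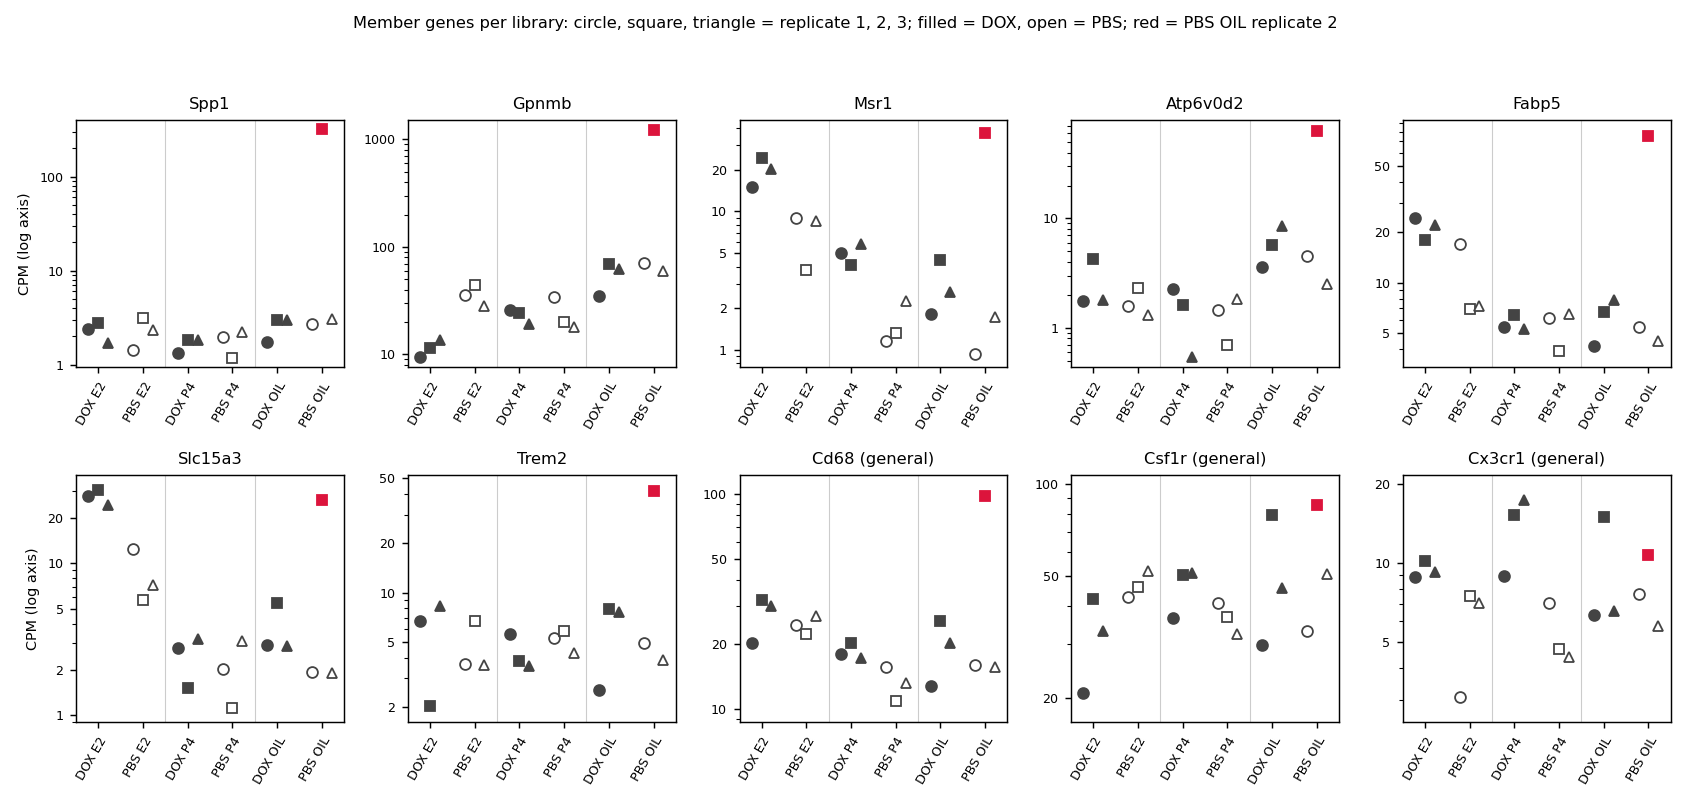
Level of each of the 10 genes in each of the 18 libraries, in CPM on a log axis, by group, with circle, square and triangle for replicates 1, 2 and 3, filled for DOX and open for PBS. The red square, PBS OIL replicate 2, is at 319 CPM for Spp1 and 1213 CPM for Gpnmb, far above the other 17 libraries, and at 10.7 CPM for Cx3cr1, inside their range.

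Ratios to a general macrophage gene within a library depended on which of the 3 was used. Per count of Csf1r, PBS OIL replicate 2 held 14.1 counts of Gpnmb, against 0.273 to 2.12 in the other 17 libraries. It held 3.72 counts of Spp1, against 0.0318 to 0.114, and 0.741 counts of Atp6v0d2, against 0.0106 to 0.187. These 3 ratios and Trem2 (0.489, against 0.0478 to 0.321) were highest in that library. The ratios of Msr1 (0.425), Slc15a3 (0.304) and Fabp5 (0.877) to Csf1r were not, and all 3 were highest in DOX E2 replicate 1, at 0.719, 1.33 and 1.177. Per count of Cd68, Spp1 was at 3.25 in PBS OIL replicate 2, against 0.0556 to 0.196 elsewhere, and Gpnmb at 12.4, against 0.358 to 4.38. Atp6v0d2 was highest there as well (0.648, against at most 0.423), but the other 4 genes were not. Trem2 was at 0.428 per count of Cd68, below PBS P4 replicate 2 (0.538), Fabp5 was at 0.767 with rank 2 of 18 libraries, Msr1 at 0.372 with rank 4 and Slc15a3 at 0.265 with rank 6. Per count of Cx3cr1, 6 of the 7 genes were highest in PBS OIL replicate 2, from 3.403 for Msr1 to 113 for Gpnmb, and Slc15a3 (2.43) was not.

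The genes outside the members named here are 9 of the 10 that lay furthest above every other library in PBS OIL replicate 2, by the gap in log2 CPM to the highest of the other 17. Mmp12, macrophage elastase, came first with 664 CPM in that library, against at most 17.6 CPM elsewhere. Tm7sf4, an older symbol of Dcstamp, which macrophages need to fuse, had 12.4 CPM, against at most 0.633 CPM. Il1rn, the interleukin 1 receptor antagonist, had 42.6 CPM, against at most 2.89 CPM, and Itgax, which encodes CD11c, had 112 CPM, against at most 12 CPM. Itgad (10.03 against 0.642 CPM), Itgb2 (146 against 28.0 CPM), Clec4d (20.4 against 3.82 CPM) and Cd300ld (13.2 against 1.77 CPM) encode leukocyte integrin chains and myeloid receptors. Glycam1, a sialomucin, had 7.75 CPM, against at most 1.39 CPM.

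Marker lists that leave out the 10 members were described in the same library by the fold over the median of the other 17. Over all tested genes with such a fold the median was 1.002, and 1.65% of 15484 lay at least 4-fold higher. Of 30 lipid-associated macrophage genes 13 lay at least 4-fold higher, with a median of 3.03, led by Mmp12 (415-fold), Il1rn (103-fold) and the receptor gene Clec4d (21.9-fold). Of 20 general macrophage genes 4 did, with a median of 2.46: Cybb, a subunit of the phagocyte oxidase (9.88-fold), Ctss, a lysosomal protease (8.31-fold), Lyz2, lysozyme (5.17-fold), and Itgam, CD11b (4.40-fold). The complement genes C1qa and C1qb, named after their values were seen, were at 1.12-fold and 1.04-fold. Of 10 resident macrophage genes 0 did, with a median of 0.94 and a highest value of 1.53. Among the 13 lipid-associated genes, Cd36 (17.3-fold), Lpl (9.31-fold) and Pparg (4.54-fold) are also expressed by adipocytes. Lpl and Pparg were higher in another library, at 777 and 23.6 CPM, against 570 and 12.7 CPM. The part of adipocytes in these folds was not tested. As summed levels, the lipid-associated list lay 1.92-fold and the general list 3.61-fold over the median, the reverse order.

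Genes of the osteoclast list reached at least 4-fold for 3 of 8, Tm7sf4 (40.5-fold), the acid phosphatase gene Acp5 (10.5-fold) and the protease gene Ctsk (8.61-fold). Of 18 lysosomal genes, 17 V-ATPase subunits other than the d2 member and 4 MiT/TFE factors 0 did, with medians of 1.29, 1.16 and 1.70. The lysosomal sum was still the highest of all libraries there, at 4425 CPM against 2050 to 3241 CPM elsewhere. Of the 18 lysosomal genes 9 were highest in that library, and of the 17 V-ATPase subunits 6 were. The sums of the V-ATPase and MiT/TFE lists had rank 3. Markers of other cell types were high in that library as well. Of 7 neutrophil genes with a fold 6 lay at least 4-fold higher, led by S100a8 at 19.96-fold, and the list of 10 summed to 50.7 CPM, against 1.94 to 24.5 CPM elsewhere, with Ly6g at 0, a gene that had at most 0.0821 CPM in any other library. Of 21 adipocyte genes 12 did, led by Cyp2e1 at 19.3-fold, and they summed to 4309 CPM with no member at 0, against 314 to 8253 CPM elsewhere. The part of either cell type in the levels of the members was not tested. In PBS E2 replicate 1, which had the highest adipocyte sum, Spp1 was at 1.42 CPM and Gpnmb at 35.8 CPM. Fabp5 was at 17.01 CPM there, Slc15a3 at 12.5 CPM and Msr1 at 9.02 CPM. The medians of these 3 genes over the libraries other than PBS OIL replicate 2 were 6.48, 3.07 and 4.098 CPM. Gpnmb also lay above its median of 28.4 CPM, while Spp1, Atp6v0d2 and Trem2 lay below theirs. In DOX OIL replicate 1, which had the highest neutrophil sum of the other 17 libraries, Spp1 was at 1.74 CPM and Gpnmb at 35.2 CPM. Gpnmb and Atp6v0d2 lay above their medians in that library, and Spp1, Msr1, Fabp5, Slc15a3 and Trem2 lay below.

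**Figure D2:**
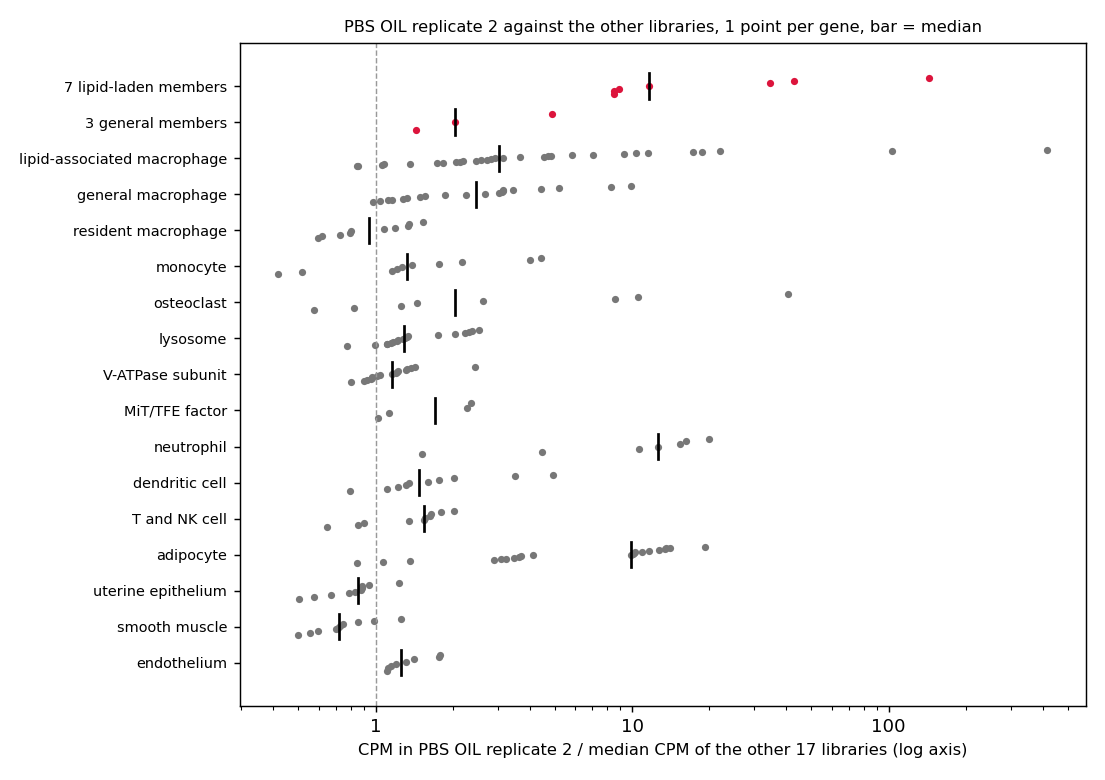
Fold of each gene in PBS OIL replicate 2 over the median of the other 17 libraries (CPM over CPM, log axis), 1 point per gene, with the members in red, marker lists in grey and a black bar at each median. The lipid-associated list lies higher (median 3.03) than the resident macrophage list (median 0.94), and neutrophil and adipocyte genes lie high as well (medians 12.6 and 9.95).

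**Figure D3:**
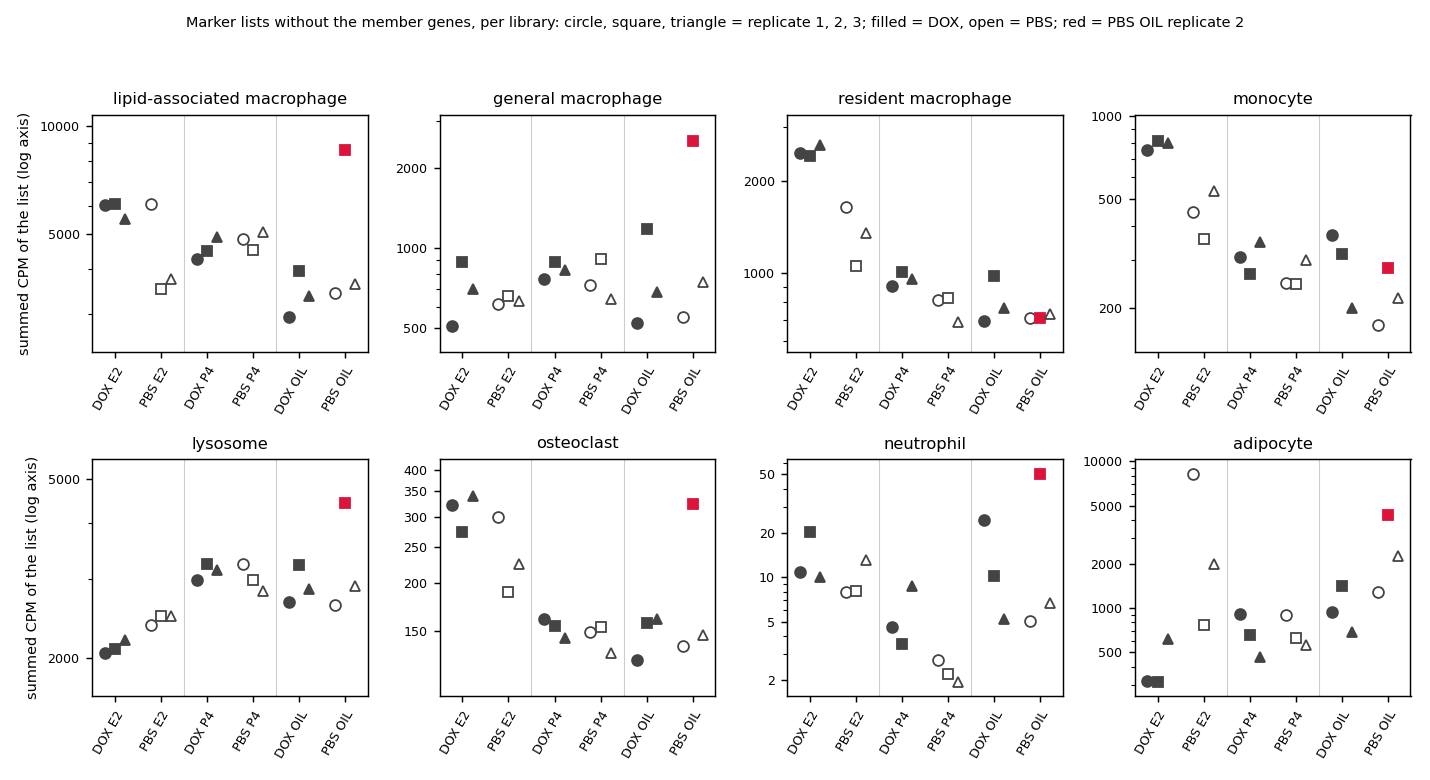
Summed level of 8 marker lists without the members in each of the 18 libraries, in CPM on a log axis, by group, with circle, square and triangle for replicates 1, 2 and 3, filled for DOX and open for PBS. PBS OIL replicate 2 (red) is highest for lipid-associated (8609 CPM) and general macrophage genes (2540 CPM) and lies at 712 CPM for resident macrophage genes, near the low end. Over the median of the other 17 libraries these sums are 1.92-fold, 3.61-fold and 0.745-fold.

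In DOX E2 against PBS E2 uteri, which gives the doxorubicin effect in mice that received E2, the 7 genes did not move as 1 group. Gpnmb was lower with DOX, while Msr1, Fabp5 and Slc15a3 were higher, and Spp1, Trem2 and Atp6v0d2 overlapped. The share of all tested genes without overlap was not counted, here or in the comparisons below. Overlap is therefore given only as a description of the values. PBS OIL replicate 2 has no part in these group means, but it enters the spread that the fit of all 18 libraries estimates for each gene. In that fit 0 of the 10 genes passed edgeR's quasi-likelihood test at a Benjamini-Hochberg adjusted p of 0.05, where 41% of all tested genes did. Without that library 4 of the 7 passed (3 higher, 1 lower) and 0 of the 3 general genes, with 41% of all tested genes called, 20.5% higher and 20.5% lower.

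Gpnmb had 9.45, 11.502 and 13.6 CPM in DOX E2 uteri, against 35.8, 44.5 and 28.4 CPM in PBS E2 uteri. Every DOX E2 library lay below every PBS E2 library, and below every other library of the series. The log2 fold change was -1.65 ± 0.28 (SE, n = 3 per group; edgeR adjusted p = 0.000419) without PBS OIL replicate 2 and -1.65 ± 0.83 (adjusted p = 0.123) with all 18 libraries. It stayed past the threshold in each of the 17 fits that also left out 1 more library, between -1.80 and -1.50.

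Msr1 had 14.9, 24.3 and 20.3 CPM in DOX E2 uteri, against 9.02, 3.79 and 8.49 CPM in PBS E2 uteri. Slc15a3 had 27.7, 30.7 and 24.2 CPM in DOX E2 uteri, against 12.5, 5.75 and 7.23 CPM in PBS E2 uteri. For both genes every DOX E2 library lay above every PBS E2 library, and the 6 E2 libraries lay above the P4 libraries except for PBS E2 replicate 2 in Msr1. Without PBS OIL replicate 2 Msr1 rose by 1.48 ± 0.36 (edgeR adjusted p = 0.00524) and Slc15a3 by 1.68 ± 0.36 (edgeR adjusted p = 0.00207) on the log2 scale, and both kept the call in all 17 further fits with 1 library left out. With all 18 libraries the values were 1.48 ± 0.86 (adjusted p = 0.185) and 1.68 ± 0.73 (adjusted p = 0.0761).

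Fabp5 had 24.4, 18 and 22.2 CPM in DOX E2 uteri, against 17, 6.94 and 7.28 CPM in PBS E2 uteri. The groups did not overlap, but PBS E2 replicate 1 came close to the lowest DOX E2 library. Without PBS OIL replicate 2 the log2 fold change was 1.03 ± 0.31 (edgeR adjusted p = 0.0171). The call was lost when PBS E2 replicate 2 (0.79), PBS E2 replicate 3 (0.83) or DOX E2 replicate 1 (0.91) was left out as well, and the value was 1.598 without PBS E2 replicate 1. Of 10 markers of uterine epithelium 4 were higher and 0 lower in the same fit, where 41% of all tested genes were called and 20.5% were higher. Their sum was 1600, 1535 and 1127 CPM in DOX E2 uteri, against 1063, 966 and 751 CPM in PBS E2 uteri, and their part in the Fabp5 value was not tested.

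The other members did not pass in either fit. Without PBS OIL replicate 2, Trem2 was at 0.29 ± 0.46, Atp6v0d2 at 0.58 ± 0.52 and Spp1 at 0.00 on the log2 scale. Trem2 had 6.66, 2.01 and 8.30 CPM in DOX E2 uteri, against 3.68, 6.72 and 3.61 CPM in PBS E2 uteri, so the groups overlapped. Cd68 had 20.3, 32.1 and 30.3 CPM in DOX E2 uteri, against 24.5, 22.2 and 27.0 CPM in PBS E2 uteri. Csf1r had 20.8, 42.1 and 33.0 CPM in DOX E2 uteri, against 42.8, 46.1 and 51.9 CPM in PBS E2 uteri. Cd68 overlapped, and Csf1r was lower in every DOX E2 library without passing the test (-0.55 ± 0.30, edgeR adjusted p = 0.161 without PBS OIL replicate 2). Cx3cr1 had 8.83, 10.2 and 9.28 CPM in DOX E2 uteri, against 3.09, 7.48 and 7.02 CPM in PBS E2 uteri. Its groups did not overlap, and it was at 0.70 ± 0.38 (edgeR adjusted p = 0.150).

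Genes of the same pathways were counted from the lists, in the fit of all 18 libraries unless stated, where 41% of all tested genes were called. Of 20 general macrophage genes 0 rose and 1 fell in DOX E2 uteri, with a median log2 fold change of 0.20 against 0.02 for all tested genes. The one that fell was Mertk, a receptor for dying cells (-0.48 ± 0.10, edgeR adjusted p = 0.00138). Of 30 lipid-associated genes 4 rose and 6 fell, with a median of -0.12, a smaller share than over all tested genes. Without PBS OIL replicate 2 it was 6 and 9, a larger share than the 41% of that fit. Npc2, which carries cholesterol out of lysosomes, fell by 0.68 ± 0.11, Nr1h3, the oxysterol receptor LXR alpha, fell by 0.87 ± 0.17, and Ch25h, cholesterol 25-hydroxylase, rose by 1.15 ± 0.26. Of 18 lysosomal genes 1 rose and 8 fell, with a median of -0.25, among them Mcoln1, a calcium channel of lysosomes (-0.98 ± 0.11), and Ppt1, a thioesterase (-0.69 ± 0.09). The one that rose was Neu1, a sialidase (0.64 ± 0.10).

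Of the 4 MiT/TFE factors, which drive lysosomal genes and Gpnmb in other tissues, Tcfeb (an older symbol of Tfeb) fell by 0.62 ± 0.13 and Tcfe3 (Tfe3) rose by 0.29 ± 0.08, while Mitf was at -0.43 ± 0.19 (edgeR adjusted p = 0.0758). Of 17 V-ATPase subunits 5 rose and 1 fell, and without PBS OIL replicate 2 it was 8 and 1. Atp6v0d1, the widely expressed paralog of Atp6v0d2, rose by 0.23 ± 0.06. Of 14 ligand and receptor partners 3 rose and 1 fell. Of the osteopontin receptor genes in it, Itga9 (1.12 ± 0.13), Cd44 (1.06 ± 0.20) and Itgav (0.69 ± 0.14) rose, while Itgb1 (0.37), Itga4 (0.20) and Itgb5 (-0.14) did not pass. Il34, a ligand of CSF1R, fell by 2.103 ± 0.48. Of 9 monocyte genes 4 rose and 0 fell, led by Plac8 (1.87 ± 0.26).

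Adipocyte markers moved with this comparison. Of 20 tested 0 rose and 19 fell in DOX E2 uteri, with a median of -3.92, and their sum was 318, 314 and 614 CPM in DOX E2 uteri, against 8253, 767 and 1987 CPM in PBS E2 uteri. Their part in the members' values was not tested. In PBS E2 replicate 1, the library with the highest sum, Fabp5, Slc15a3 and Msr1 were the highest of their group.

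**Figure D4:**
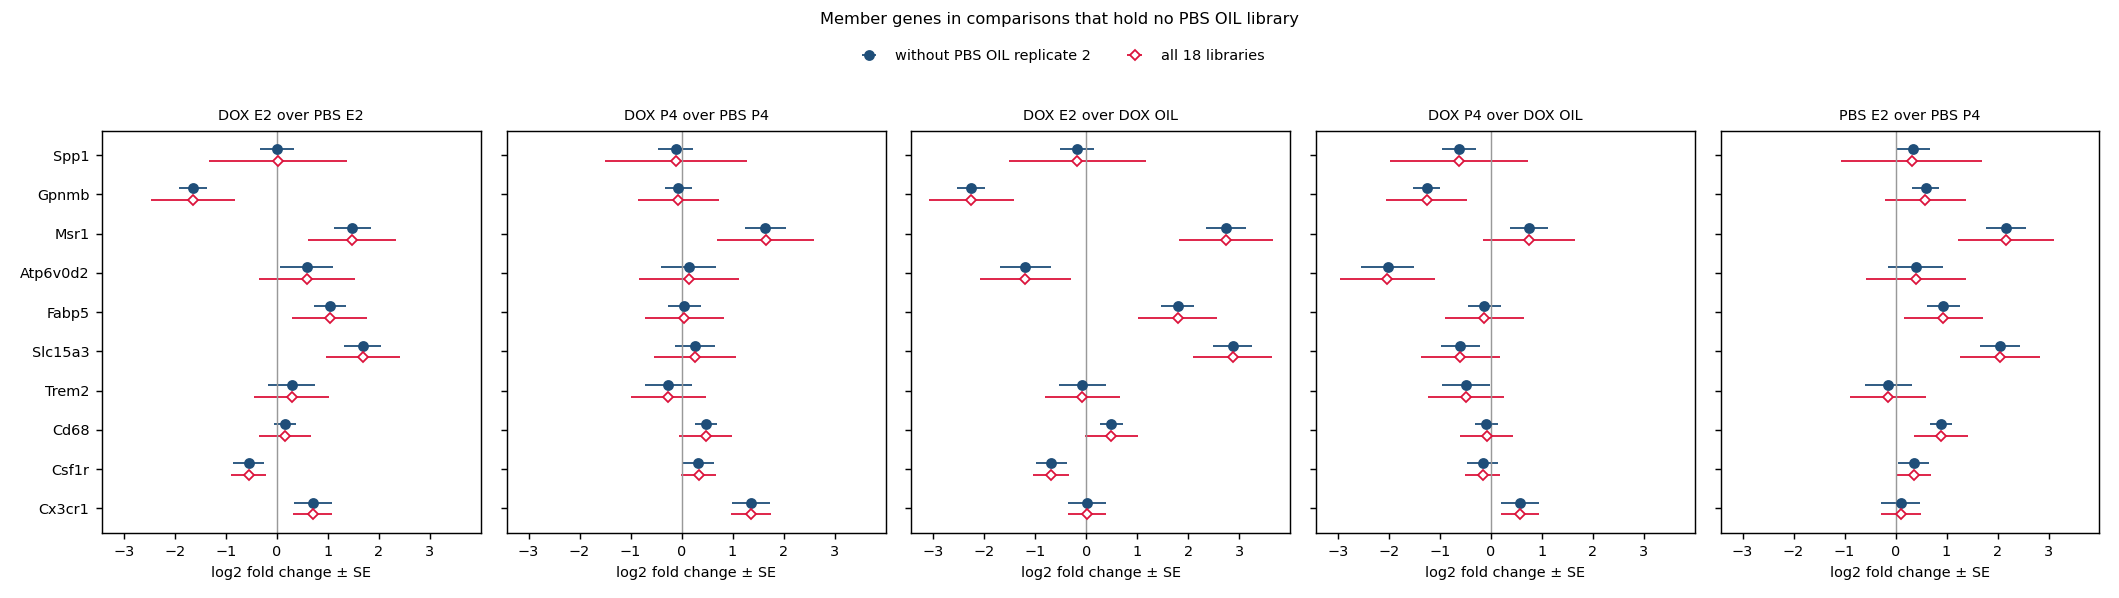
Log2 fold change with its SE of the 10 genes in 5 comparisons that hold no PBS OIL library, without PBS OIL replicate 2 (filled circles) and with all 18 libraries (open diamonds). The fold changes nearly coincide between the fits, and the SE with all 18 libraries is wider, for example 0.83 against 0.28 for Gpnmb in DOX E2 over PBS E2, but hardly so for Cx3cr1 (0.39 against 0.38).

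Under progesterone, DOX P4 against PBS P4 uteri, 0 of the 10 genes passed, and 0% of all 15494 tested genes did in edgeR's quasi-likelihood test. Before adjustment 822 genes had a p below 0.05, and DESeq2 called 10. Msr1 had 5.02, 4.10 and 5.82 CPM in DOX P4 uteri, against 1.17, 1.34 and 2.27 CPM in PBS P4 uteri. The groups did not overlap, and the log2 fold change was 1.65 ± 0.40 without PBS OIL replicate 2 (edgeR adjusted p = 0.776). Cx3cr1 had 8.91, 15.3 and 17.4 CPM in DOX P4 uteri, against 7.06, 4.70 and 4.40 CPM in PBS P4 uteri, again without overlap (1.36 ± 0.38, edgeR adjusted p = 0.854). The groups did not overlap for Cd68 either (0.48 ± 0.22, edgeR adjusted p = 0.854), and the share of all tested genes without overlap was not counted. Gpnmb had 26.0, 24.3 and 19.0 CPM in DOX P4 uteri, against 34.1, 20.1 and 18.1 CPM in PBS P4 uteri, and the groups overlapped.

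The doxorubicin effect was compared between the hormones directly, as the log2 fold change under E2 minus that under P4. With all 18 libraries 0 of the 10 genes passed, where 22.9% of all tested genes did. Without PBS OIL replicate 2 Gpnmb passed, at -1.59 ± 0.38 (edgeR adjusted p = 0.0102), where 22.6% of all tested genes did and 12.5% were lower. Slc15a3 was at 1.42 (edgeR adjusted p = 0.0684) and Msr1 at -0.17 (edgeR adjusted p = 0.843). The Gpnmb value ranged from -1.92 to -1.42 when 1 more library was left out and kept its call in all 17 fits.

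Estradiol was compared with oil within the DOX arm. Gpnmb had 9.45, 11.502 and 13.6 CPM in DOX E2 uteri, against 35.2, 68.7 and 61.7 CPM in DOX OIL uteri. Msr1 had 14.9, 24.3 and 20.3 CPM in DOX E2 uteri, against 1.82, 4.45 and 2.63 CPM in DOX OIL uteri. Neither gene overlapped between the groups. With all 18 libraries 3 of the 7 lipid-laden genes rose and 1 fell, where 72.6% of all tested genes were called, 35.1% higher and 37.5% lower, so a call is near the norm in this comparison. Slc15a3 rose by 2.87 ± 0.77 (edgeR adjusted p = 0.00342), Msr1 by 2.74 ± 0.92 (edgeR adjusted p = 0.0138) and Fabp5 by 1.79 ± 0.77 (edgeR adjusted p = 0.0467), and Gpnmb fell by 2.26 ± 0.83 (edgeR adjusted p = 0.0234).

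Without PBS OIL replicate 2 all 4 kept their call, and each kept it in the 17 fits with 1 more library left out. Atp6v0d2 fell by 1.19 ± 0.51 in that fit (edgeR adjusted p = 0.0458), where 72.8% of all tested genes were called, 35.3% higher and 37.5% lower, but lost the call in 8 of 17 further fits. With all 18 libraries, leaving out 1 library other than PBS OIL replicate 2 ended the Fabp5 call in 14 of 17 fits, the Gpnmb call for DOX OIL replicate 2 and for each DOX E2 library (4 fits), and the Msr1 call for DOX OIL replicate 1, while Slc15a3 kept its call. Of the general genes 0 passed in either fit, with Csf1r at -0.69 (edgeR adjusted p = 0.0546 without that library) and Cd68 at 0.49 (edgeR adjusted p = 0.0542). With all 18 libraries Csf1r passed when DOX OIL replicate 1 (-0.97) or DOX E2 replicate 2 (-0.93) was left out.

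Of 18 lysosomal genes 2 rose and 13 fell in DOX E2 against DOX OIL uteri, where 35.1% of all tested genes were higher and 37.5% lower, with a median log2 fold change of -0.72 against -0.08 for all tested genes. Mcoln1 was at -1.70 ± 0.11, Ppt1 at -1.22 ± 0.09 and Grn, progranulin, at -1.43 ± 0.13. Of 30 lipid-associated genes 6 rose and 9 fell, fewer calls than the 72.6% of all tested genes. Cd63, a tetraspanin of late endosomes, rose by 1.03 ± 0.07, while Npc2 (-1.28 ± 0.11) and Nceh1, a cholesterol ester hydrolase (-1.63 ± 0.17), fell. Mitf fell by 1.84 ± 0.19 and Csf1, the ligand of CSF1R, rose by 1.89 ± 0.25.

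In DOX P4 against DOX OIL uteri 0 of the 10 genes passed with all 18 libraries, where 29.8% of all tested genes did. Cx3cr1 was at 0.57 and passed when DOX OIL replicate 2 was left out (1.10, edgeR adjusted p = 0.0467). In the fit without PBS OIL replicate 2, 2 of the 7 fell and 0 rose, where 29.9% were called and 15.3% were lower. Gpnmb had 26.0, 24.3 and 19.0 CPM in DOX P4 uteri, against 35.2, 68.7 and 61.7 CPM in DOX OIL uteri (-1.26 ± 0.27, edgeR adjusted p = 0.00335). Atp6v0d2 had 2.26, 1.62 and 0.542 CPM in DOX P4 uteri, against 3.61, 5.73 and 8.58 CPM in DOX OIL uteri (-2.03 ± 0.52, edgeR adjusted p = 0.00999). Neither gene overlapped between the groups, and both kept the call in all 17 further fits. Mitf fell by 1.03 ± 0.18 with all 18 libraries.

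Between the hormones in the PBS arm, 1 of the 10 genes, Slc15a3, rose in PBS E2 against PBS P4 uteri with all 18 libraries, where 57.6% of all tested genes were called and 29.1% were higher. It had 12.5, 5.75 and 7.23 CPM in PBS E2 uteri, against 2.02, 1.12 and 3.07 CPM in PBS P4 uteri (2.05 ± 0.79, edgeR adjusted p = 0.0358). That call was lost without PBS E2 replicate 1 (1.65), PBS P4 replicate 1 (2.03) or PBS P4 replicate 2 (1.75). When PBS OIL replicate 2 was left out, 3 of the 7 and 1 of the 3 general genes rose, where 58% were called and 29.5% were higher. Msr1 was at 2.17 ± 0.40 (edgeR adjusted p = 0.000314), Fabp5 at 0.94 ± 0.32 (edgeR adjusted p = 0.0217) and Cd68 at 0.89 ± 0.22 (edgeR adjusted p = 0.0032). The groups did not overlap for Msr1, Slc15a3, Fabp5 and Cd68, nor for Csf1r, which did not pass (0.36, edgeR adjusted p = 0.331). Again the share of all tested genes without overlap was not counted. Without PBS E2 replicate 1, the library with the highest adipocyte sum, Fabp5 was at 0.37 and no longer passed, and adipocyte genes were higher in this comparison for 16 of 20 tested. Their part in the Fabp5 value was not tested.

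The comparisons with PBS OIL are the ones in which the chosen library takes part. With it, DOX OIL over PBS OIL gave log2 fold changes of -5.41 for Spp1, -3.02 for Gpnmb, -2.19 for Fabp5, -2.14 for Msr1, -1.98 for Atp6v0d2, -1.49 for Trem2 and -1.41 for Slc15a3. Without it, they were -0.17 for Spp1, -0.24 for Gpnmb, 0.32 for Fabp5, 1.16 for Msr1, 0.75 for Atp6v0d2, 0.45 for Trem2 and 0.97 for Slc15a3. The sign differed between the fits for 5 of the 7 genes, and Cd68 was at -1.14 with the library and at 0.30 without it. Without it 0 of the 10 genes passed edgeR's quasi-likelihood test, where 0.0128% of all tested genes did. Before adjustment 1399 genes in that fit had a p below 0.05, Msr1 and Slc15a3 among them. DESeq2 called 21 genes with all 18 libraries.

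For PBS E2 over PBS OIL the values with the library were -5.61 for Spp1, -3.63 for Gpnmb, -3.76 for Atp6v0d2, -1.87 for Trem2, -1.43 for Fabp5, -0.87 for Msr1 and -0.22 for Slc15a3. Without it Gpnmb fell by 0.84 ± 0.29 (edgeR adjusted p = 0.0213), Msr1 rose by 2.42 ± 0.47 (edgeR adjusted p = 0.000485), Slc15a3 rose by 2.16 ± 0.45 (edgeR adjusted p = 0.00087) and Fabp5 rose by 1.09 ± 0.37 (edgeR adjusted p = 0.0208). In all 3 of 7 rose and 1 fell, where 58.2% of all tested genes were called, 28.7% higher and 29.6% lower, and of the general genes Cd68 rose (0.63 ± 0.25, edgeR adjusted p = 0.041). Spp1 was at -0.34 and Trem2 at 0.08. With 2 PBS OIL libraries left, Msr1 and Slc15a3 kept the call in all 17 further fits. Gpnmb and Fabp5 lost it in 3 each and Cd68 in 6, and Fabp5 was at 0.52 without PBS E2 replicate 1.

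For PBS P4 over PBS OIL the values with the library were -5.92 for Spp1, -4.21 for Gpnmb, -4.15 for Atp6v0d2, -3.03 for Msr1, -2.37 for Fabp5, -2.27 for Slc15a3 and -1.72 for Trem2. Without it 1 of the 10 genes passed, where 25.9% of all tested genes did and 12.7% were lower. Gpnmb had 34.1, 20.1 and 18.1 CPM in PBS P4 uteri, against 70.3 and 59.8 CPM in the 2 remaining PBS OIL uteri, and fell by 1.43 ± 0.29 (edgeR adjusted p = 0.00342). Atp6v0d2 was at -1.42 (edgeR adjusted p = 0.0826), Spp1 at -0.68 (edgeR adjusted p = 0.184), Msr1 at 0.26, Trem2 at 0.22, Fabp5 at 0.15 and Slc15a3 at 0.11. The 9 comparisons share groups with each other, so their values are not independent.

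**Figure D5:**
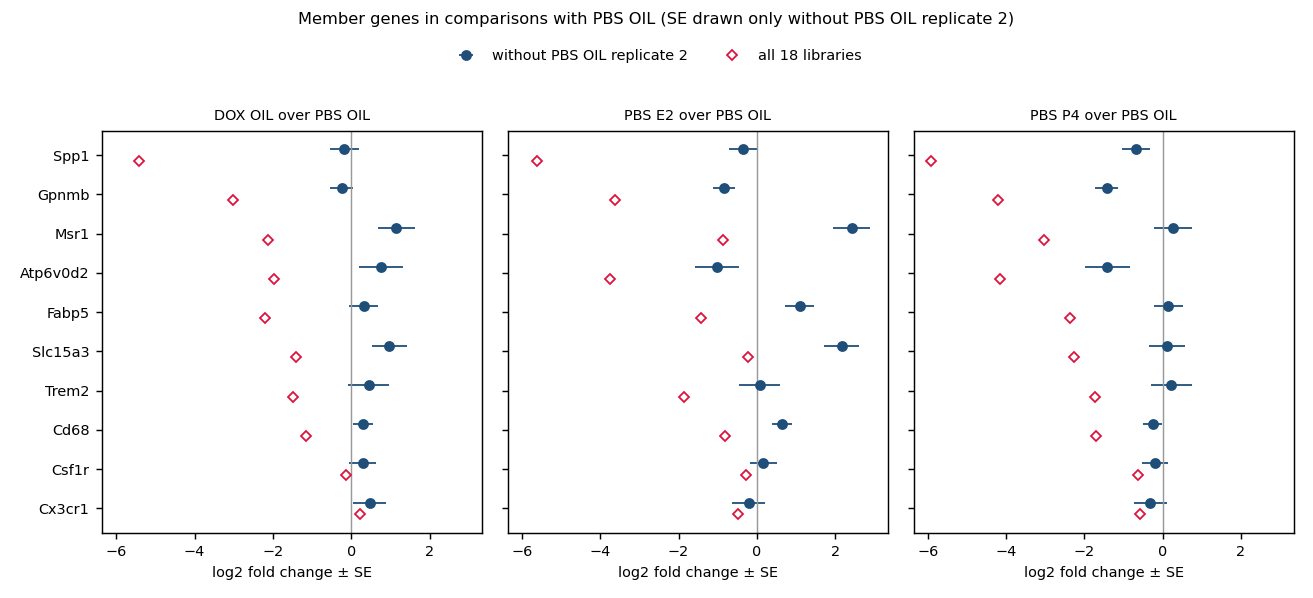
Log2 fold change of the 10 genes in the 3 comparisons with PBS OIL, without PBS OIL replicate 2 (filled circles, with SE) and with all 18 libraries (open diamonds, no error drawn). Spp1 in DOX OIL over PBS OIL is at -5.41 with the library and at -0.17 without it, while Csf1r and Cx3cr1 lie between -0.63 and 0.48 in both fits.

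Across the 17 libraries without PBS OIL replicate 2 the 7 genes thus followed no single order. Gpnmb was highest in the OIL groups and lowest in DOX E2, with means of 11.502 ± 2.05 CPM in DOX E2, 36.2 ± 8.06 CPM in PBS E2, 23.1 ± 3.65 CPM in DOX P4, 24.1 ± 8.75 CPM in PBS P4 and 55.2 ± 17.6 CPM in DOX OIL (SD, n = 3 each), and 65.0 ± 7.48 CPM in the 2 remaining PBS OIL libraries. PBS P4 overlapped with DOX P4 and with PBS E2, and DOX OIL overlapped with PBS E2 and PBS OIL, so these neighbours in the order were not apart. Slc15a3 had the reverse order at its ends, with 27.5 ± 3.27 CPM in DOX E2 and a mean of 1.91 CPM in the 2 remaining PBS OIL libraries. It had 8.48 ± 3.53 CPM in PBS E2 and between 2.07 and 3.75 CPM in the means of DOX P4, PBS P4 and DOX OIL, which overlapped. The remaining PBS OIL libraries overlapped with DOX P4 and PBS P4 but not with DOX OIL. The 5 genes outside the members that followed Gpnmb most closely over these libraries were ranked by Pearson's r of log2 CPM among 14031 genes whose mean log2 CPM was 0 or more. They were Cpeb1, which binds RNA (0.95), Rai2 (0.94), Smpdl3a, a phosphodiesterase related to acid sphingomyelinase (0.94), Anapc5, a subunit of the anaphase-promoting complex (0.94), and Mbp, myelin basic protein (0.94). These r values describe 17 libraries that share 6 groups and are given with no test.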

How the data were processed

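Total RNA of whole uterus was sequenced in 18 libraries. Per the labels' protocols it was extracted with Trizol, and the libraries came from a TruSeq kit for total RNA. The authors deposited 1 table of raw counts per gene symbol and library, with 22238 symbols, of which 2904 were at 0 in every library. The submitters' processing notes name build GRCm38 and, for reads, Trimmomatic 0.36 and FastQC 0.11.5. They also name HISAT2 2.1.0 and SAMtools 1.6, and StringTie 1.3.4d beside R 3.4.4 and DESeq2 1.18.1. How the counts were made, whether strand was used and which annotation served is not given in the sources used here, so reads of overlapping or antisense genes may be mixed. Libraries held 18042357 to 39783785 counts. Counts of libraries within a group differed beyond sampling noise, by 15.7 to 69.4 chi-square units per degree of freedom, so none was counted as a repeat of another.

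The counts were fitted in R 4.3.3 with edgeR 4.0.16 (filterByExpr, TMM, robust quasi-likelihood F test, 6 groups, 12 residual degrees of freedom), which left 15494 genes, or 15647 without PBS OIL replicate 2. P-values were adjusted by Benjamini and Hochberg over all tested genes of a comparison, with a threshold of 0.05. The SE is the size of the log2 fold change divided by the square root of F. In comparisons that contain PBS OIL, the members were tested only without its replicate 2. Counts over all tested genes are also given with it. Levels per length divide CPM by the union of exons of GENCODE M21, which also gave the gene positions.

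The 10 members and the 20 marker lists (239 entries, 238 in the table, 10 of them under another symbol) were chosen with earlier results of these data known. The text names all members, and of each list up to 3 genes with the smallest p in a comparison or the largest excess in PBS OIL replicate 2. It also names, of the 10 other genes with the largest gap in that library, all but 1 that is not reported here, and the 5 that correlate best with Gpnmb. Itgam, C1qa, C1qb, Cd36, Lpl, Pparg, Ly6g, Il34, Itgb1, Itga4 and Itgb5 fall outside this rule and were named after their values were seen.

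Alternatives were the size factors of DESeq2 1.42.0, its Wald test, no filter, at least 1 CPM in 3 libraries, a fit of the compared groups alone, a replicate block, and leaving out each library in turn. Repeating these, apart from the filters, without PBS OIL replicate 2 was decided after seeing the data. The fitting code was first tested on simulated data.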

Additional observations from a re-analysis of the deposited data

Results flagged for a closer look

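The doxorubicin effect on Gpnmb differed between the hormones in the test of the difference itself. The log2 fold change under E2 minus that under P4 was -1.59 ± 0.38 (SE, n = 3 per group, edgeR adjusted p = 0.0102) without PBS OIL replicate 2. Gpnmb had 11.502 ± 2.05 CPM in DOX E2 uteri and 36.2 ± 8.06 CPM in PBS E2 uteri, against 23.1 ± 3.65 CPM in DOX P4 uteri and 24.1 ± 8.75 CPM in PBS P4 uteri (SD, n = 3 each). Every DOX E2 library lay below every PBS E2 library, and the P4 groups overlapped. With all 18 libraries the adjusted p was 0.336 at a log2 difference of -1.59, where the spread estimated for the gene includes PBS OIL replicate 2. When 1 more library was left out, the difference ranged from -1.92 to -1.42 and the highest adjusted p was 0.0292. Without PBS OIL replicate 2, 22.6% of all tested genes were called for this difference, and 12.5% were lower. Adipocyte genes moved with the same difference, with 0 of 20 tested higher and 8 lower, and their part in the Gpnmb value was not tested.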

How the results depend on the processing

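In the 6 comparisons with no PBS OIL library, fold changes of the members near 0, none past the threshold, changed sign in 43 settings of 18 results. In comparisons with PBS OIL, values further from 0 also changed sign when its replicate 2 was left out. Msr1 in DOX OIL over PBS OIL went from -2.14 to 1.16. With 1 library left out, the log2 fold change in DOX E2 over PBS E2 ran from -0.279 to 0.2963 for Spp1 and -0.0992 to 0.6888 for Trem2. In DOX P4 over PBS P4 it ran from -0.3466 to 0.0741 (Spp1), -0.2323 to 0.272 (Gpnmb), -0.2931 to 0.5482 (Atp6v0d2), -0.1478 to 0.1865 (Fabp5) and -0.0392 to 0.6571 (Slc15a3). In DOX E2 over DOX OIL it ran from -0.4002 to 0.0107 (Spp1), -0.4689 to 0.3183 (Trem2) and -0.1988 to 0.5477 (Cx3cr1). In DOX P4 over DOX OIL it ran from -0.3475 to 0.073 (Fabp5), -0.3174 to 0.1607 (Cd68) and -0.4377 to 0.2894 (Csf1r), and in PBS E2 over PBS P4 from -0.4913 to 0.0102 (Trem2) and -0.1144 to 0.4291 (Cx3cr1). The difference between hormones ran from -0.1705 to 0.406 (Spp1), -0.5099 to 0.0442 (Msr1) and -0.1007 to 0.8771 (Atp6v0d2). Spp1 in DOX E2 over PBS E2 was at -0.0023 without a filter and -0.0427 with only the groups compared, and Cx3cr1 in DOX E2 over DOX OIL at -0.0068 without a filter.

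Between libraries of the same replicate number, correlations of deviations from the group mean ran from -0.28 to 0.36. Whether the numbers mark pairs was not tested, and the main fit used no pairing. With the replicate block Atp6v0d2 (-0.0035) and Fabp5 (-0.0045) in DOX P4 over PBS P4 and Trem2 (0.1141) in DOX E2 over DOX OIL changed sign. DOX OIL over PBS OIL called 0 genes with the replicate block and 21 with DESeq2, against 2, and 0 to 4 with 1 library left out. DOX P4 over PBS P4 called 10 with DESeq2, against 0. Leaving out 1 library gave 3057 to 5152 genes in DOX P4 over DOX OIL (4618 with all) and 3146 to 5511 in PBS P4 over PBS OIL (4930 with all), both lowest without replicate 3 of the P4 group. The cause was not tested.

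Among the member results with all 18 libraries, 28 settings gained a call, 11 of them by leaving out PBS OIL replicate 2, and 25 settings lost one. Without that library, some calls also ended under another setting. Fabp5 no longer passed when only the groups compared were fitted, in DOX E2 over PBS E2 (0.997), PBS E2 over PBS P4 (0.91) and PBS E2 over PBS OIL (1.11). Atp6v0d2 in DOX E2 over DOX OIL lost its call with DESeq2 size factors (-1.16), with the replicate block (-1.26) and with only the groups compared (-1.19), and Cd68 in PBS E2 over PBS OIL with the replicate block (0.59). The Gpnmb, Msr1 and Slc15a3 calls of that fit held under these 4 settings. Outside PBS OIL replicate 2, low counts limit Spp1, Atp6v0d2 and Trem2 in all groups and Msr1 and Slc15a3 in the P4 and OIL groups. Levels there were a few CPM.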
